A study of Mus musculus with 36 samples.

Results

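Testis RNA from mice lacking D1Pas1 was compared with wild-type testis RNA at postnatal day 14 (P14). The comparison holds 3 knockout libraries, which the deposited table numbers 4 to 6, and 3 wild-type libraries, numbered 1 to 3. These are 6 of the 36 samples of the series, taken by their labelled age and genotype, and every gene of their table was read on values normalised within that table. Testis is the labelled tissue and male germ cell the labelled cell type, and the labels give no strain, allele or cross. They do not say that each library came from a separate animal, so every p-value here rests on the spread among the 6 libraries, which may be technical. The same genotypes were also sequenced at P18 and P28, and those tables served here only to look up what the P14 genes did later. The other samples hold small RNA, RNA:DNA hybrid and D1PAS1-bound RNA libraries, which were not used.

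D1PAS1 is a DEAD-box RNA helicase encoded by an autosomal, intronless relative of X-linked Ddx3x, and it is made mainly in meiotic and post-meiotic male germ cells. DEAD-box helicases of the DDX3 family remodel RNA and RNA-protein complexes and act in translation and other steps of RNA metabolism. In the juvenile mouse testis the first wave of spermatogenesis advances as a cohort, so that the oldest germ cells at a given age define how far the tissue has come. Around P14 those cells are primary spermatocytes in zygotene and pachytene, the stages of meiotic prophase in which homologous chromosomes synapse. Genes of late pachytene, of the acrosome and of the sperm tail are only beginning to be transcribed.

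The deposited estimated counts summed to between 21.8 M and 30.4 M per library, and 15922 of 24626 genes passed the filter on low counts. Levels are given as counts-per-million (CPM) after TMM scaling, and fold changes as log2 of knockout over wild type. The libraries were not marked out by genotype alone. On the first principal component, which held 33.0% of the variance, wild-type libraries 1 to 3 lay at -9.33, -35.5 and 1.75. Knockout libraries 4 to 6 lay at 13.5, 19.9 and 9.74. The genotypes did not overlap on this component, and wild-type library 2 lay furthest out. In the same table the labelled cell type was not met alone: the 34 Sertoli cell genes summed to between 9547 and 10694 CPM, beside 2383 to 3156 CPM for 24 genes of early and middle pachytene, so these libraries hold somatic RNA. In such bulk RNA, fewer cells of a type and less RNA per cell cannot be told apart.

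By the stage lists, wild-type library 2 was the most advanced of the 6 libraries. Its summed level was the highest of all libraries in 6 of 8 stage lists, from meiotic entry to elongating spermatid, and the lowest in the 2 spermatogonial lists. Wild-type library 3 showed the reverse, with the highest sum in the 2 spermatogonial lists and the lowest in the other 6. Each knockout library, by contrast, lay within the wild-type range in 8 of 8 lists.

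**Figure D1:**
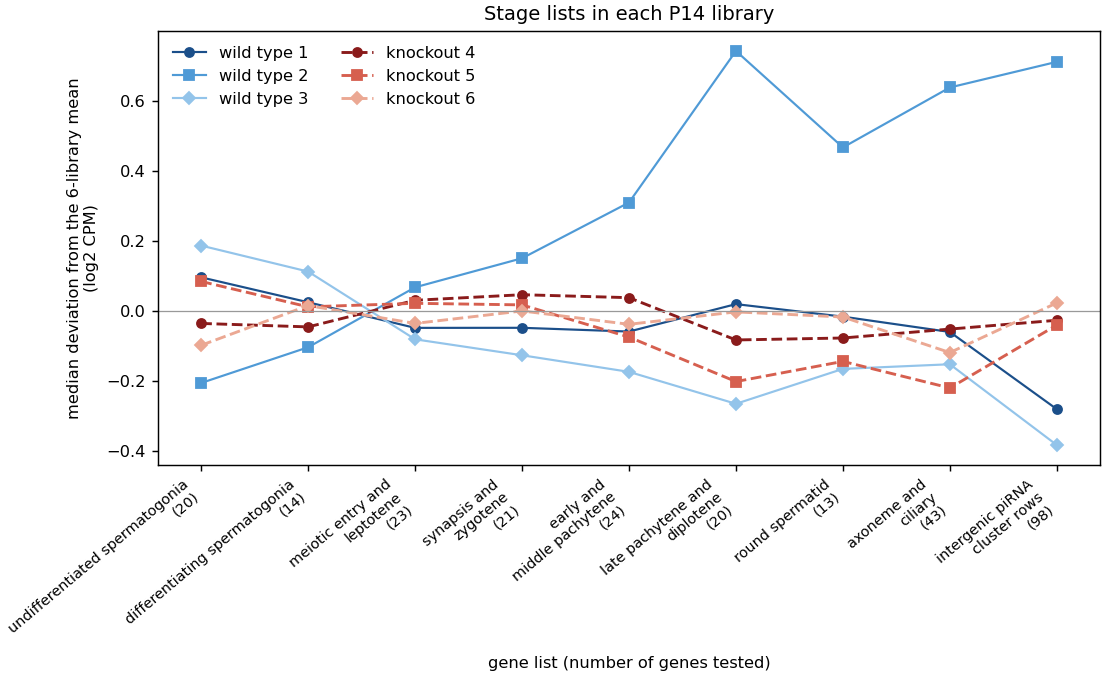
Each line is 1 library at P14, and the vertical axis gives the median, over the genes of a list, of that gene's log2 CPM minus its mean over the 6 libraries. Wild type 2 reaches 0.74 in late pachytene and diplotene while the other 5 libraries lie between -0.27 and 0.02, and the 3 knockout lines run within the wild-type lines in the stage lists up to round spermatid. Knockout 5 is lowest in the axoneme list. In the elongating spermatid list, which is not drawn, the values of knockout 4 and 5 lie above those of every wild-type library.

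Single stage markers were read beside the lists. Kit, the receptor of differentiating spermatogonia, stood at 140, 136 and 150 CPM in wild-type libraries 1 to 3 and at 143, 146 and 143 CPM in knockout libraries 4 to 6. Stra8, which is needed for entry into meiosis, was at 78.1, 70.4 and 70.4 CPM in wild type and 73.2, 69.4 and 69.0 CPM in knockout. The knockout values of both genes overlapped the wild-type values. Gfra1 and Zbtb16, markers of undifferentiated spermatogonia, ranged from 10.9 to 17.5 CPM and from 63.2 to 84.7 CPM over the 6 libraries, each with wild-type library 3 highest.

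The meiotic markers overlapped between the genotypes as well. The recombinase gene Dmc1 was at 80.4, 94.6 and 81.7 CPM in wild type and at 88.1, 90.7 and 77.8 CPM in knockout. Sycp1, which encodes the transverse filament of the synaptonemal complex, stood at 185, 247 and 189 CPM in wild type and at 232, 199 and 195 CPM in knockout. Sycp3, a lateral element gene, ranged from 229 to 295 CPM and was highest in wild-type library 2. Mybl1, the transcription factor gene of the pachytene program, ranged from 125 to 161 CPM, again with wild-type library 2 highest. Piwil1, which encodes a PIWI protein of pachytene spermatocytes and spermatids, was at 69.0, 140 and 60.5 CPM in wild type and at 83.4, 69.9 and 82.6 CPM in knockout. Its 3 knockout levels therefore lay between those of the less and the more advanced wild-type libraries. Hspa2, a chaperone gene of spermatocytes, ranged from 266 to 394 CPM in wild type and from 266 to 324 CPM in knockout. Acrv1, an acrosomal gene, had 0 to 3 counts per library and the protamine gene Prm1 had none, so neither was tested.

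D1Pas1 itself (GRCm38.p6, chr1:186967416-186970627) was lower in every knockout library but still counted there. Its level was 32.0, 45.4 and 36.1 CPM in wild type and 16.8, 16.3 and 13.6 CPM in knockout. The groups did not overlap, and the log2 fold change was -1.28 (SE 0.14) with an adjusted p of 0.0860 by edgeR's quasi-likelihood test, above the threshold of 0.05. DESeq2 called it lower, with an adjusted p of 2.15e-15, and so did edgeR with no filter on low counts (adjusted p 0.0336), with the stage covariate (0.0397) and without wild-type library 2 (0.0164). The labels do not say which part of the gene the allele removes, and D1Pas1 resembles Ddx3x closely, so counts left in the knockout may include reads shared with that gene. The difference was larger at the later ages, with log2 fold changes of -2.14 at P18 and -2.74 at P28.

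The relatives of D1Pas1 overlapped between the genotypes at P14. Ddx3x was at 246, 260 and 259 CPM in wild type and at 255, 263 and 265 CPM in knockout, with a log2 fold change of 0.04 (SE 0.04). Y-linked Ddx3y gave -0.02 (SE 0.07) and Ddx4, the germ-cell helicase known as VASA, gave -0.03 (SE 0.10). At P28, by comparison, the same fits gave 1.27 for Ddx3x and 1.40 for Ddx3y.

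Across all genes, no gene reached an adjusted p under 0.05 by edgeR (a share of 0%), and 4 stood under 0.1, namely D1Pas1, Pea15a, Ifi202b and pi-Socs7. At an unadjusted p under 0.05, 597 genes were higher and 351 lower in knockout, or 3.75% and 2.2% of those tested. Every knockout library lay above every wild-type library for 1026 genes (6.44%) and below for 767 genes (4.82%). With library totals in place of TMM these shares were 7.89% and 3.17%, so the balance of higher against lower depends on the scaling. DESeq2 called 48 genes higher and 10 lower, 0.288% and 0.0601% of the 16643 to which it gave an adjusted p. By comparison, the P18 table gave 1312 genes that were at least 2-fold lower in knockout (8.34%) and 502 that were higher (3.19%).

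**Figure D2:**
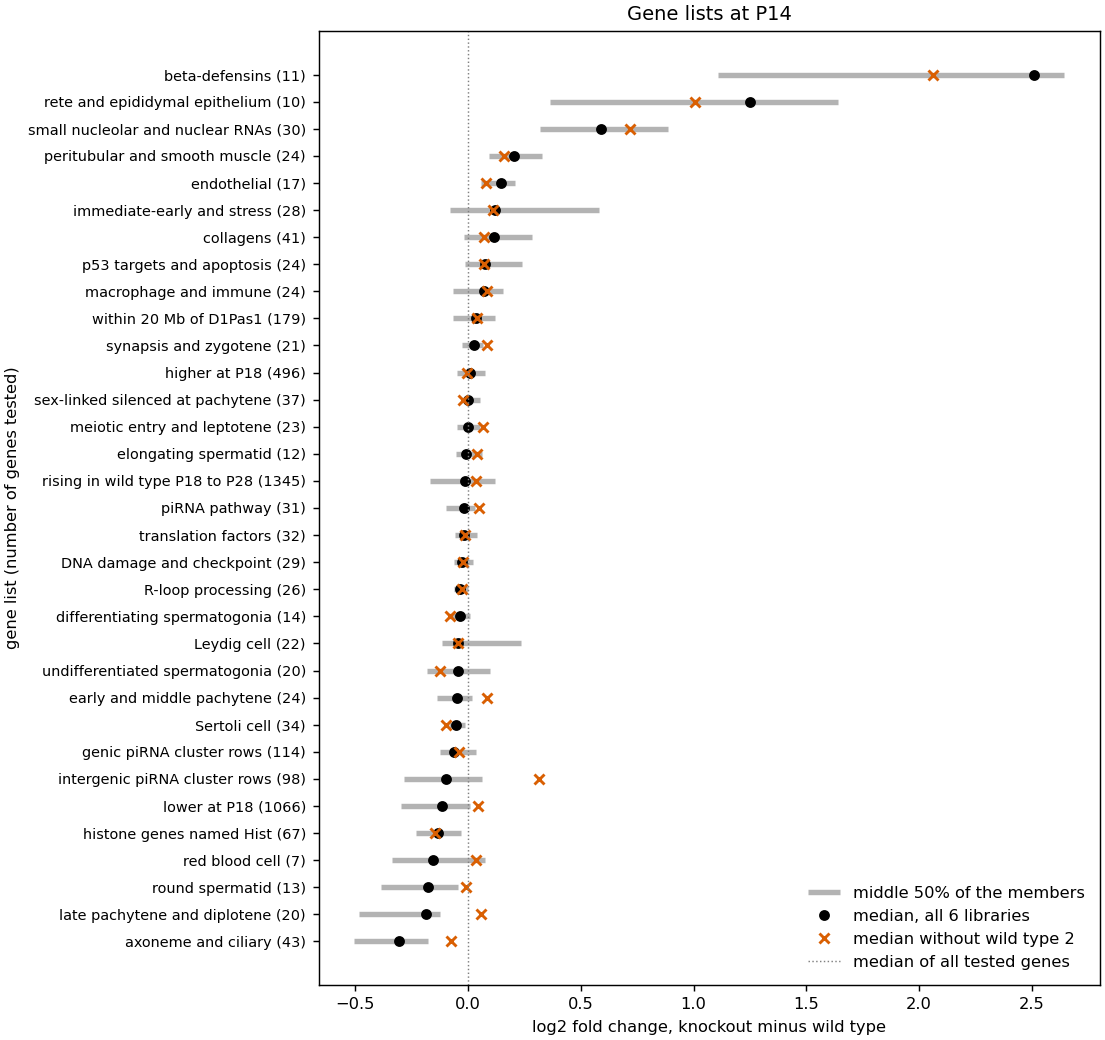
For each gene list the dot gives the median log2 fold change of its tested members over all 6 libraries, the bar the middle 50% of the members, and the cross the median without wild-type library 2. Lists of late meiotic genes, axoneme genes and intergenic piRNA rows move to the right without that library, whereas the duct, smooth-muscle and histone lists stay on their side of 0.

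Genes of late pachytene and diplotene had a negative median in knockout, and this rested on wild-type library 2. The median log2 fold change of the 20 tested members was -0.19, beside -0.00 over all genes. Of these members 0 lay above and 2 (10%) below the whole wild-type range, against 6.44% and 4.82% of all genes. Without wild-type library 2 the median was 0.06. Ldhc, the germ-cell lactate dehydrogenase, was at 52.5, 98.2 and 41.3 CPM in wild type and at 42.6, 37.1 and 40.7 CPM in knockout. The knockout values thus overlapped wild-type library 3 and were far under library 2. Adam3, a sperm surface protein needed for passage into the oviduct, was at 0.78, 1.97 and 0.49 CPM in wild type and at 0.39, 0.31 and 0.37 CPM in knockout. Here no knockout library reached the lowest wild-type library, and the log2 fold change was -1.57 (SE 0.54, edgeR adjusted p 0.762). Adam32, of the same protease family, likewise did not overlap, at 2.37 to 6.69 CPM in wild type and 1.85 to 2.07 CPM in knockout. Both genes were much further apart at P18, with log2 fold changes of -5.21 and -4.03. Acr, the acrosomal protease gene, ranged from 2.45 to 5.04 CPM in wild type and from 2.11 to 2.94 CPM in knockout, which overlapped. Ccna1, the cyclin of late prophase, was near 1 CPM in all 6 libraries and overlapped too.

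Axoneme genes, which build the microtubule core of the sperm tail and of motile cilia, had the lowest median of the lists read. Of 55 listed genes 43 were tested, with a median of -0.31 and 4 members above 0. In 9 of the 43 (20.9%) every knockout library was below every wild-type library, against 4.82% of all genes, and in 1 it was above. Without wild-type library 2 the median was -0.07, and 9 members were below and 6 above, beside 12.4% and 12.9% of all genes. None passed the test in either direction.

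The separated members included dynein, radial spoke and regulatory complex genes. Dnah6, an inner-arm dynein heavy chain, was at 1.74, 3.62 and 1.62 CPM in wild type and at 1.05, 0.75 and 0.83 CPM in knockout. All 3 knockout libraries were below even the least advanced wild-type library, and the log2 fold change was -1.39 (SE 0.36, edgeR adjusted p 0.530). Rsph6a, a radial spoke head gene, was at 0.52, 0.75 and 0.72 CPM in wild type and at 0.23, 0.40 and 0.18 CPM in knockout. Its wild-type values did not follow the order of the late pachytene list, since library 3 was close to library 2. Drc1 and Drc7, of the nexin-dynein regulatory complex, gave -0.90 (SE 0.28) and -1.07 (SE 0.36), also without overlap. Dnah17, an outer-arm dynein heavy chain named here after its values were seen, was at 4.99, 11.4 and 3.91 CPM in wild type and at 3.16, 2.81 and 3.44 CPM in knockout. At P18 these 5 genes gave log2 fold changes between -5.99 and -2.77.

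Sequences upstream of these genes were searched for letters of factors known from ciliary and spermatocyte genes, because most members lay to the same side. In the 250 bases before each RefSeq start (GRCm38.p6, both strands), GTTGCCNNG, taken from the X-box bound by RFX factors, was in 17.5% of 40 promoters of the 37 tested axoneme genes that matched by symbol and in 4.09% of 32851 promoters in all. CAGTTG, a MYB core, was in 22.5% against 11.1%, and TGACGTCA, the cAMP response element, was in 2.5% against 1.55%. The X-box letters were not particular to axoneme genes. They were in 29.4% of 17 promoters of the late pachytene and diplotene list and in 8.7% of 23 of early and middle pachytene. CAGTTG was in 0% and 17.4% of these promoters. Among the 9 axoneme genes below the wild-type range, GTTGCCNNG was in 2 of 9 promoters, CAGTTG in 2 and TGACGTCA in 1. Promoters on 1 chromosome were left out of the display, so a further gene of the 9 may hold a match. Of the others, 4 genes held at least 1 of these letter runs, and 120 bases of each are shown 5′ to 3′ with the match in capitals. Beside the genes described above they include Dnah10, a further inner-arm dynein heavy chain named for its match, at 2.22, 2.52 and 2.60 CPM in wild type and 2.10, 1.80 and 1.97 CPM in knockout, which did not overlap. They lie at chr5:124724835-124724954 (plus strand) for Dnah10, chr6:73221743-73221862 (minus strand) for Dnah6, chr5:30281273-30281392 (plus strand) for Drc1 and chr8:95054862-95054981 (plus strand) for Drc7.
Dnah10: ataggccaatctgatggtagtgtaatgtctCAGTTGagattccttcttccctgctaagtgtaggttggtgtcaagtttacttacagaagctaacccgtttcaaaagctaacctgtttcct
Dnah6: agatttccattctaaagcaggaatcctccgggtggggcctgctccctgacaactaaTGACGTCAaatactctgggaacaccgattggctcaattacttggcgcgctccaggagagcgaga
Drc1: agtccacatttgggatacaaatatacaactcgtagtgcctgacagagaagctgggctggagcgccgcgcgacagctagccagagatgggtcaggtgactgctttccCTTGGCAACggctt
Drc7: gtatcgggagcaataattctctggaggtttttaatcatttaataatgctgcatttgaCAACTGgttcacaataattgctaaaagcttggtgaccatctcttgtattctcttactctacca
A match says only that the letters are present in the window.

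Genes that were lower in knockout at P18 were read at P14 as a set of 1066 tested genes. Their summed level was 13840, 18847 and 13184 CPM in wild type and 14471, 14252 and 14357 CPM in knockout, so the knockout libraries lay between wild-type libraries 1 and 2. The median log2 fold change was -0.12, with 85 members (7.97%) below the wild-type range and 26 (2.44%) above it, against 4.82% and 6.44% of all genes. Without wild-type library 2 the median was 0.04, with 108 members of 1084 below and 182 above, beside 12.4% and 12.9% of all genes. The 1345 tested genes that rise at least 4-fold in wild type from P18 to P28 had a median of -0.01.

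Among the 10 largest P18 falls that were tested at P14, 6 had every knockout library below every wild-type library, Rsph6a among them, beside 4.82% of all genes. Of these, 1700051A21Rik and Cmtm2b were at 0 CPM in knockout libraries 5 and 6 and passed the filter on low counts through wild type. The share is therefore partly set by that filter. Ccdc38, a gene with a role in the sperm flagellum, was at 2.29, 3.82 and 2.11 CPM in wild type and at 1.32, 1.41 and 1.47 CPM in knockout. Its log2 fold change was -0.97 (SE 0.26, edgeR adjusted p 0.552) at P14 and -5.32 at P18. Ppp3r2, the testis-specific calcineurin regulatory subunit, was at 1.11, 3.07 and 1.28 CPM in wild type and at 0.95, 0.92 and 0.78 CPM in knockout. Cmtm2b and the uncharacterised gene 1700123L14Rik were also below the wild-type range. 1700051A21Rik had 33 counts over the 3 wild-type libraries and 1 count over the 3 knockout libraries, a ratio of 31.3 (exact 95% interval 5.24 to 1274, for counting error only). The same row was nearly absent from the knockout later, with 1303 against 32 counts at P18 and 6206 against 129 at P28.

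To read the earliest differences gene by gene, the 245 genes with an unadjusted p under 0.01 and separate groups were looked up at P18. Of these, 199 were tested there and 35 (17.6%) were called, against 17.0% of the 15369 genes tested at both ages, a share close to that of all genes. The 35 held 29 with the same direction at both ages, of which 23 were lower at both. As background, 280 of the 1066 tested genes at least 2-fold lower at P18 had a P14 log2 fold change above 0. Without wild-type library 2 it was 630 of 1084. Of the tested genes higher at P18, 271 of 496 were above 0 at P14. Among the 23 genes lower at both ages are Tcte1, a regulatory complex gene of the sperm axoneme, and Hrasls5, an acyltransferase gene. Both were named after their values were seen. Tcte1 was at 0.85, 1.73 and 0.83 CPM in wild type and at 0.46, 0.35 and 0.18 CPM in knockout. Hrasls5 was at 1.29, 2.95 and 0.87 CPM in wild type and at 0.39, 0.53 and 0.32 CPM in knockout. Neither overlapped, and their P18 log2 fold changes were -4.93 and -5.07.

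A few early differences pointed the other way from later ones. Tsga8, an X-linked haploid germ-cell gene chosen after its values were seen, was at 0.63, 1.38 and 0.53 CPM in wild type and at 2.07, 3.25 and 3.81 CPM in knockout. It did not overlap, and its log2 fold change was 1.84 (SE 0.38, edgeR adjusted p 0.417, DESeq2 adjusted p 0.00817). It was again higher at P18 (1.83) and lower at P28 (-2.67). Crat and Emx2 were likewise named after their values were seen. Crat, which encodes carnitine acetyltransferase, was at 60.2, 79.2 and 69.9 CPM in wild type and at 87.2, 97.2 and 83.2 CPM in knockout at P14, without overlap. At P18 its log2 fold change was -2.09. Emx2, a homeobox gene of the urogenital tract, gave 1.78 at P14 and -1.91 at P18.

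**Figure D3:**
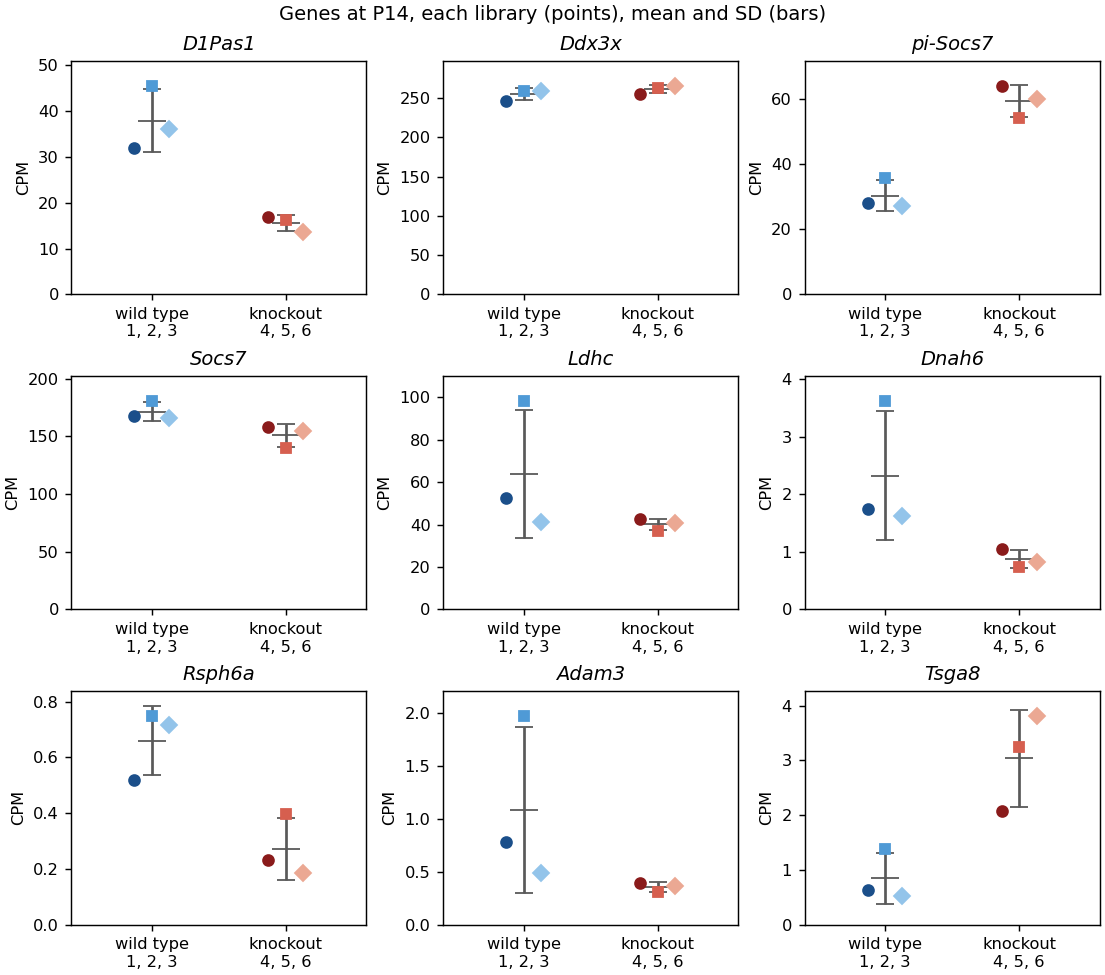
Each panel shows CPM on an axis from 0 for 1 gene, with a point for each library and bars for the mean and SD of the 3 libraries of a genotype. D1Pas1, Dnah6, Rsph6a and Adam3 lie lower in all 3 knockout libraries, pi-Socs7 and Tsga8 lie higher, and Ddx3x and Ldhc overlap.

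Pachytene piRNAs are small RNAs cut from long precursor transcripts, and the deposited table carries rows named for precursor clusters, here read by those names as intergenic and genic. The 98 tested intergenic rows followed stage within wild type, with sums of 4383, 7980 and 4305 CPM. The knockout sums were 5537, 5888 and 5675 CPM, all above wild-type libraries 1 and 3 and below library 2. Their median log2 fold change was -0.10 with 1 row above and 2 below the wild-type range, beside 6.44% and 4.82% of all genes. Without wild-type library 2 it was 0.31, with 56 of 98 rows above and 2 below, against 12.9% and 12.4% of all genes. In that fit edgeR called D1Pas1, pi-Socs7, Stc1 and Fbxl18, and 7 intergenic rows, all of the rows higher, and Fbxl18 is named only for that call. Of these rows, 9-qC-31469 was at 112, 285 and 124 CPM in wild type and at 201, 195 and 190 CPM in knockout. Every knockout library stood between wild-type libraries 1 and 3 on one side and library 2 on the other.

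Ratios between summed lists were mixed. The summed axoneme level per unit of the summed intergenic piRNA level was 0.107, 0.0990 and 0.101 in wild type and 0.0936, 0.0735 and 0.0843 in knockout. For late pachytene and diplotene genes the ratio was 0.0583, 0.0486 and 0.0529 in wild type and 0.0456, 0.0405 and 0.0459 in knockout. Neither of these ratios overlapped between genotypes. For the genes lower at P18 the ratio to the same rows did overlap, at 3.16, 2.36 and 3.06 in wild type and 2.61, 2.42 and 2.53 in knockout. Late pachytene genes per unit of synapsis genes also overlapped, at 0.200 to 0.277 in wild type and 0.192 to 0.224 in knockout. The ratios were chosen after the values were seen and carry no test. The ratio of intergenic piRNA rows to synapsis genes overlapped, at 3.79 to 5.69 in wild type and 4.28 to 4.87 in knockout, as did that of axoneme to synapsis genes.

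The genic row pi-Socs7 was the clearest higher row. It stood at 28.0, 36.0 and 27.3 CPM in wild type and at 64.1, 54.3 and 60.2 CPM in knockout, with no overlap. The log2 fold change was 0.97 (SE 0.11, edgeR adjusted p 0.0860), and DESeq2 called it with an adjusted p of 5.79e-13. So did edgeR with no filter (adjusted p 0.0336), with the stage covariate (0.00792) and without wild-type library 2 (0.0103). The row of its host gene Socs7, a suppressor of cytokine signalling, was at 168, 181 and 166 CPM in wild type and at 158, 140 and 155 CPM in knockout. Added together, both rows gave 196, 217 and 193 CPM in wild type and 222, 194 and 215 CPM in knockout, which overlapped. The estimated counts may divide shared reads between the 2 rows, so a change of their split and a change of the precursor cannot be told apart. At P18 the log2 fold change of pi-Socs7 was 0.65 (edgeR adjusted p 0.196), and at P28 it was -1.79 (edgeR adjusted p 0.00140). The 114 genic rows as a list had a median of -0.06, with 4 above and 12 (10.5%) below the wild-type range, against 6.44% and 4.82% of all genes.

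Genes of the piRNA pathway, which process and load these RNAs, did not separate. The 31 tested members had a median of -0.02, and 0 were above or below the wild-type range. Tdrd9, a helicase of the pathway, ranged from 131 to 214 CPM in wild type and from 94.1 to 161 CPM in knockout. Lists for other processes in which a DDX3-type helicase could act were as flat. R-loop processing genes had a median of -0.03 over 26 members, DNA damage and checkpoint genes -0.03 over 29, and translation factors -0.02 over 32. The 37 genes of the sex chromosomes that are silenced at pachytene had a median of 0.00, with 3 above the wild-type range (Tex16, Magea5 and Kdm6a, at log2 fold changes of 0.15, 0.26 and 0.12) and 1 below. Among 24 p53 targets and apoptosis genes, with a median of 0.07, 5 were above and 3 below the wild-type range (20.8% and 12.5%, against 6.44% and 4.82% of all genes). Perp, a p53 target of epithelial junctions, gave 0.71 (SE 0.19), and Bcl2l11, which encodes the death-promoting protein BIM, gave -0.18 (SE 0.06), both without overlap.

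Transcripts of the ducts that drain the testis differed by more than any germ-cell list. Of 12 listed genes of rete and epididymal epithelium 10 were tested, with a median of 1.25 and 9 above 0. In 5 of the 10 (50%) every knockout library lay above every wild-type library, against 6.44% of all genes, and in 0 below. The summed level of the list overlapped, at 168, 152 and 215 CPM in wild type and 267, 290 and 205 CPM in knockout. The defining markers were low but present: Krt8, a keratin of simple epithelia, was at 0.81, 0.98 and 2.75 CPM in wild type and at 5.53, 5.23 and 3.21 CPM in knockout, and its partner Krt18 ranged from 0.35 to 1.09 CPM against 1.15 to 2.37 CPM. Crisp1, a secreted protein of the epididymis, was at 11.2, 3.11 and 28.1 CPM in wild type and at 78.6, 93.7 and 41.3 CPM in knockout. Wild-type library 3 was the nearest to the knockout and knockout library 6 the nearest to wild type. Leaving out each library in turn, the median of the list ran from 0.99 to 1.66.

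Several of the smallest p-values among higher genes came from genes not on that list, which were read beside it only after their values were seen. Wfdc15b, a secreted protease-inhibitor-like protein, was at 0.67, 0.43 and 1.88 CPM in wild type and at 8.98, 7.77 and 6.15 CPM in knockout. Its log2 fold change was 2.93 (SE 0.42, edgeR adjusted p 0.240). Cldn8, a tight junction gene, gave 2.70 (SE 0.50), Cwh43 gave 2.21 (SE 0.39) and Prom1, which marks apical membranes, gave 1.90 (SE 0.32), all without overlap. Prom1 was called lower in knockout at the later ages, at -1.61 at P18 (edgeR adjusted p 0.0271) and -4.96 at P28 (edgeR adjusted p 7.43e-05). Cd52, an abundant surface peptide of the epididymis and of lymphocytes, was at 0.85, 1.14 and 4.52 CPM in wild type and at 13.3, 12.2 and 13.5 CPM in knockout, and edgeR called it only without wild-type library 3 (adjusted p 0.000878). The uncharacterised gene 2300002M23Rik followed the same placing, at 0.47 to 4.40 CPM in wild type and 11.8 to 21.9 CPM in knockout. Serpina1f, an epididymal serpin named after its values were seen, was at 1.11, 0.79 and 3.76 CPM in wild type and at 12.4, 14.3 and 7.62 CPM in knockout. Of 43 beta-defensin genes, a family rich in epididymal members, 11 were tested. Of these, 8 were above the wild-type range, against 6.44% of all genes. Defb1 was among the 8, at 0.11 to 0.15 CPM in wild type and 0.46 to 1.23 CPM in knockout. A gene this low in wild type could pass the filter on low counts only through knockout libraries, so the share is partly set by that filter. The summed level of the family overlapped, at 584 to 692 CPM in wild type and 564 to 588 CPM in knockout. That sum mainly follows Defb19, which is far more abundant than the rest and is also on the Sertoli cell list.

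At P18 these transcripts were placed differently. There, Crisp1 was at 1.62, 39.7 and 0.00 CPM in wild type and at 0.00, 0.00 and 0.20 CPM in knockout, so that 1 wild-type library held nearly all of it, and the wild-type libraries held 77 counts each of Wfdc15b and Serpina1f, nearly all in that library, while the knockout libraries held 0. Which library carried them thus differed between ages. Epcam, also made by germ cells, gave 0.25 at P14, and the listed gene Wfdc10 and the beta-defensin Defb19, both far more abundant than the rest, overlapped or were lower, at log2 fold changes of -0.10 and -0.15. The part that tissue attached to the dissected testis has in these differences was not tested.

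**Figure D4:**
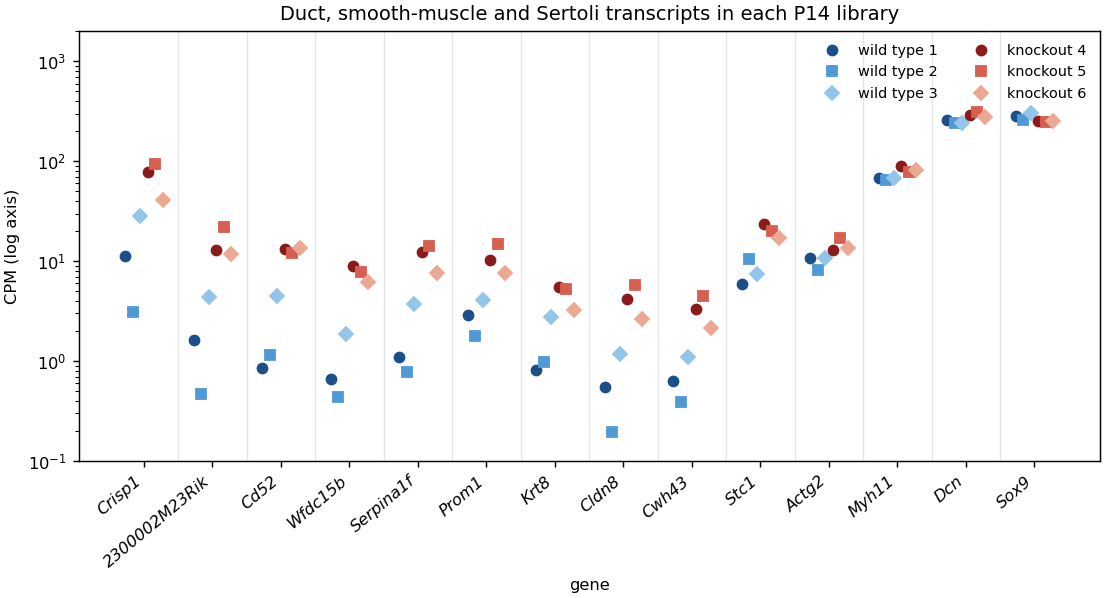
Points give CPM on a log axis in each P14 library. The genes Crisp1 to Cwh43 were read with the ducts, and of them only Crisp1 and Krt8 are on the duct list. Stc1 is a secreted hormone gene, Actg2, Myh11 and Dcn are of smooth muscle and stroma, and Sox9 is of Sertoli cells. The genes read with the ducts lie higher in all 3 knockout libraries, with wild-type library 3 nearest to them. The muscle, stroma and Sertoli genes differ by far less among libraries.

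Genes of peritubular and smooth muscle cells, the contractile layer around the tubules, were slightly higher in knockout as a list. Of 24 tested members 23 had a log2 fold change above 0, with a median of 0.20, and 8 (33.3%) lay above the wild-type range while 0 lay below, against 6.44% and 4.82% of all genes. The summed level was 4114, 3623 and 4046 CPM in wild type and 5007, 4556 and 4164 CPM in knockout, without overlap, and the median without wild-type library 2 was 0.16. Myh11, smooth muscle myosin, was at 67.7, 64.7 and 67.3 CPM in wild type and at 88.8, 78.4 and 82.4 CPM in knockout. Its log2 fold change was 0.32 (SE 0.06, edgeR adjusted p 0.330), and DESeq2 called it with an adjusted p of 0.00908. Dcn, the proteoglycan decorin, gave 0.23 (SE 0.05), Actg2 gave 0.55 (SE 0.15) and Cald1 gave 0.19 (SE 0.05), all without overlap. Cav2 (0.48, SE 0.09) and Nr2f2 (0.30, SE 0.05), known from stromal and vascular cells, were among the smallest p-values. Endothelial genes had a median of 0.15 over 17 members, 2 of them, Cldn5 and Vwf, above the wild-type range. The largest muscle and duct sums were both in knockout libraries 4 and 5, and the part of duct tissue in the muscle difference was not tested.

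Other somatic lists gave smaller medians. The 34 Sertoli cell genes had a median of -0.05, with 4 below and 2 above the wild-type range, beside 4.82% and 6.44% of all genes. Without wild-type library 2 the median was -0.10, with 15 of the 34 below and 2 above, beside 12.4% and 12.9% of all genes. Sox9, the Sertoli cell determining factor, was at 281, 261 and 304 CPM in wild type and at 250, 246 and 252 CPM in knockout, a log2 fold change of -0.18 (SE 0.06), and Sox8 and Aard gave -0.22 and -0.25 with no overlap. Leydig cell genes had a median of -0.04 over 22, and macrophage and immune genes 0.07 over 24. Immediate-early genes, which respond within minutes to handling of tissue, marked 1 library: Junb was at 74.8 CPM in knockout library 5 and at 12.9 to 16.9 CPM in the other 5, and Btg2 at 116 CPM against 30.2 to 42.2 CPM. The list as a whole had a median of 0.12 with 1 member above the wild-type range.

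The remaining genes with the smallest p-values came from several classes. Stc1, which encodes the hormone stanniocalcin, was at 5.88, 10.4 and 7.45 CPM in wild type and at 23.3, 19.9 and 17.2 CPM in knockout, a log2 fold change of 1.35 (SE 0.20, edgeR adjusted p 0.271). Its log2 fold changes were 1.19 at P18 and 1.2 at P28. Prps2, an X-linked enzyme gene of nucleotide synthesis, gave 0.39 (SE 0.07) and was at 23.8 to 26.2 CPM in wild type and 32.6 to 34.0 CPM in knockout. It was also called higher at P18 (0.53, edgeR adjusted p 0.0285). Fam171a2 gave 0.74 (SE 0.13). On the lower side, Nxph3 gave -0.78 (SE 0.13), the prostate-linked transporter Slc45a3 gave -0.48 (SE 0.09), the receptor gene Gprc5b gave -0.18 (SE 0.04) and 3 housekeeping genes, Rps21, Ndufa1 and Edf1, gave -0.19 (SE 0.04), -0.28 (SE 0.06) and -0.39 (SE 0.09). Fam171a2 and the 6 lower genes lay outside the wild-type range, and none passed the edgeR threshold, with adjusted p from 0.317 to 0.482.

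Histone genes were lower as a group. Of 67 tested genes named Hist, 14 (20.9%) lay below the wild-type range and 0 above, against 4.82% and 6.44% of all genes, and the median was -0.13, or -0.15 without wild-type library 2. Their summed level was 14126, 13066 and 13530 CPM in wild type and 12781, 12017 and 13037 CPM in knockout, which did not overlap. Hist1h4f, an H4 gene, was at 103, 104 and 108 CPM in wild type and at 84.0, 85.7 and 90.4 CPM in knockout, and Hist2h2bb, an H2B gene, was at 36.7, 40.9 and 46.4 CPM against 30.2, 29.2 and 31.6 CPM. The testis-specific linker histone gene Hist1h1t overlapped between the genotypes, at 101 to 166 CPM in wild type and 90.4 to 108 CPM in knockout. DESeq2 called 3 histone genes lower, namely Hist1h4f, Hist2h2bb and Hist1h2bf. Histone genes are near-identical copies, so the division of counts among them is uncertain.

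Small nucleolar and small nuclear RNAs, which guide modification and splicing of other RNAs, were higher. Of 30 tested rows 27 had a log2 fold change above 0, with a median of 0.59, and 10 (33.3%) lay above the wild-type range with 0 below, against 6.44% and 4.82% of all genes. Snora74a was at 22.8, 33.2 and 22.9 CPM in wild type and at 47.3, 92.0 and 124 CPM in knockout, a log2 fold change of 1.74 (SE 0.32, edgeR adjusted p 0.330). Rnu12, of the minor spliceosome, gave 1.09 (SE 0.23), and Snord15b gave 0.61 (SE 0.13), both without overlap. DESeq2 called all 3, and none was called at P18. The summed level overlapped, at 536 to 841 CPM in wild type and 545 to 978 CPM in knockout. Both these RNAs and most histone messages lack the long poly(A) tail of other transcripts, and whether the selection of RNA varied between libraries was not tested.

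Pea15a, Igsf8 and Ifi202b, which were all below the wild-type range, lie near D1Pas1 on chromosome 1. Pea15a, a gene of an adaptor protein in MAP kinase signalling, starts at -14.8 Mb from the start of D1Pas1. It was at 91.5, 96.3 and 97.7 CPM in wild type and at 70.2, 70.6 and 65.7 CPM in knockout, a log2 fold change of -0.47 (SE 0.05) with an edgeR adjusted p of 0.0860, or 0.0336 with no filter, and a DESeq2 adjusted p of 1.59e-08. Igsf8, beside it, gave -0.22 (SE 0.05). Ifi202b, of an interferon-inducible cluster, had 97 counts over the wild-type libraries and 0 over the knockout libraries, at least 30.7-fold lower against a floor of 3 counts over the group. Its neighbour Ifi203, a close paralog named after its values were seen, gave 0.71 (SE 0.18) in the other direction, so reads of this cluster may be divided unevenly.

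The whole neighbourhood was searched for the same reason, after these values were seen. Of 179 other tested genes within 20 Mb, 20 (11.2%) lay above and 17 (9.5%) below the wild-type range, against 6.44% and 4.82% of all genes, and the median was 0.03. At an unadjusted p under 0.05 by edgeR, 14 of the 179 were higher and 12 lower, beside 3.75% and 2.2% of all genes. At P18 the 3 genes were not called, with log2 fold changes of -0.15 for Pea15a, 0.28 for Igsf8 and -1.52 for Ifi202b. The P18 knockout libraries were unlike each other, with 0, 0 and 24 counts of Ifi202b against 16, 31 and 21 in wild type. So were those of P28, with 174, 8 and 0 counts against 148, 143 and 221. The part of genetic background around the targeted locus in these differences was not tested.

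**Figure D5:**
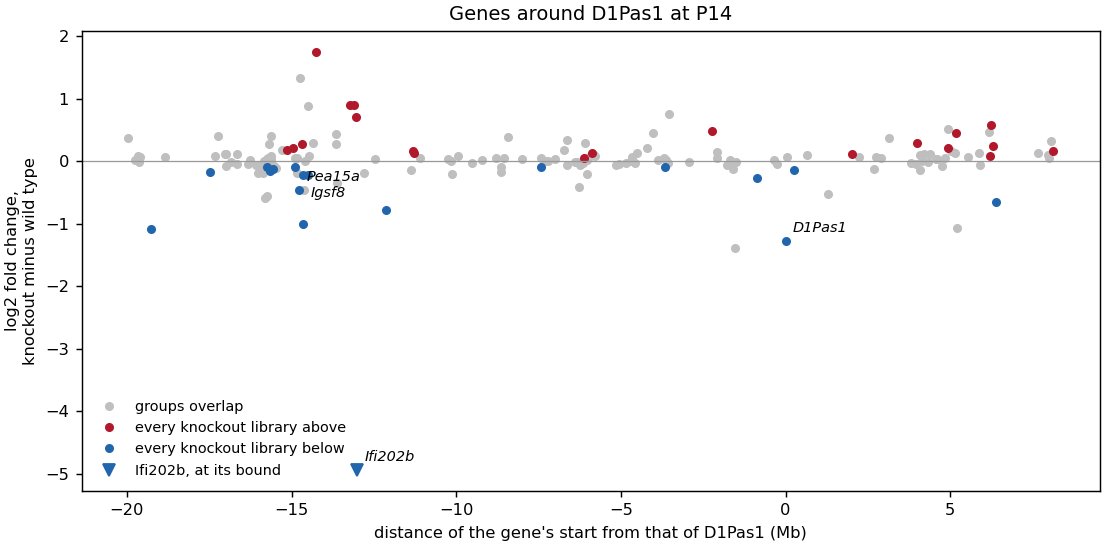
Points are tested genes within 20 Mb of D1Pas1, placed by the distance of their start in Mb and by log2 fold change at P14, with colours for separate groups. Ifi202b is drawn as a triangle at the bound of 30.7-fold lower, and separated genes of both directions lie close to Pea15a and Ifi202b.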

How the data were processed

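Total RNA of testis was sequenced by the submitters, with NEB library kits per the labels' protocols. Per the submitters' processing notes, cutadapt 3.4 and the mm10 build were used, and the sources used here do not name the aligner or counter. The deposited table gives estimated counts per gene, which were rounded to whole numbers. R 4.3.3 and edgeR 4.0.16 were used: genes with low counts were left out (filterByExpr), TMM factors were set within the P14 table, and the quasi-likelihood test compared the genotypes, with Benjamini-Hochberg adjustment over 15922 genes and a threshold of 0.05. DESeq2 1.42.0 was the alternative tool, beside other scalings, no filter, a stage covariate (the median deviation of the late pachytene list in each library) and each library left out. The P18 and P28 tables were fitted in the same way. Log2 CPM used a prior count of 2. The scripts were checked on simulated counts.

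Groups are called separate where every knockout library lay on the same side of every wild-type library in log2 CPM. The filter on low counts can pass a gene through the 3 libraries of a single genotype. Shares of separate groups in lists of low genes are therefore partly set by it. The text names D1Pas1 and its relatives, 15 stage markers, per direction the 12 separate genes with the smallest unadjusted p and a mean log2 CPM of at least 1 (predicted genes passed over), up to 10 genes called under an alternative, up to 4 members of a described list and the 10 largest P18 falls. All other genes named, such as Crat, Emx2, Fbxl18, Ifi202b, Ifi203, Socs7, Epcam, Wfdc10, Defb19, Rnu12, Snord15b and Hist1h2bf, were chosen after their values were seen. The members and lists were chosen with earlier results of these data known. Of 627 listed names 595 are in the table, and the list of mitochondrial genes has none. Coordinates and promoters are from RefSeq (GRCm38.p6). With 3 libraries a group the precision is limited by their number, and intervals cover counting error only.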

Additional observations from a re-analysis of the deposited data

How the results depend on the processing

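No paired analysis was possible because the knockout columns carry the numbers 4 to 6 and not those of the labels, so the planned replicate block was not run. edgeR called 0 genes in either direction on the main settings. DESeq2 called 48 higher and 10 lower, edgeR with no filter on low counts 1 and 3, and edgeR with the stage covariate 6 and 1. With each library left out in turn edgeR called 0 to 9 higher and 0 to 2 lower: 9 and 2 without wild-type library 2, 5 and 0 without wild-type library 3, and 0 without any other. Library totals and RLE factors called 0. The share of genes with every knockout library below wild type was 4.82% with TMM and 3.17% with library totals.

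The median of meiotic entry and leptotene genes ran from -0.036 to 0.066 over the fits that left out a library, and was 0.066 without wild-type library 2. That of late pachytene genes ran from -0.40 to 0.06, of axoneme genes from -0.45 to -0.07, of P18-lower genes from -0.21 to 0.04, of intergenic piRNA rows from -0.28 to 0.31 and of peritubular genes from 0.16 to 0.24.

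Genes near 0 changed sign. With library totals Dmc1 gave 0.018. With the stage covariate the values were Ddx3y 0.0089, Ddx4 0.086, Kit -0.011, Dmc1 0.053, Sycp3 0.050, Piwil1 0.23 and Hspa2 0.070. Over the fits that left out a library, the range was -0.078 to 0.048 for Ddx3y, -0.10 to 0.095 for Ddx4, -0.068 to 0.73 for 9-qC-31469, -0.012 to 0.061 for Kit, -0.077 to 0.0020 for Stra8, -0.051 to 0.075 for Dmc1, -0.12 to 0.066 for Sycp3, -0.073 to 0.15 for Sycp1, -0.042 to 0.14 for Mybl1, -0.41 to 0.28 for Piwil1, -0.21 to 0.087 for Hspa2 and -0.35 to 0.031 for Ccna1. The other named genes kept their sign in every fit.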

Other observations

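X-linked genes as a class were placed mostly above the wild-type range among those that separated. Of 610 tested X-linked genes, 65 (10.7%) had every knockout library above every wild-type library and 21 (3.44%) below, against 6.44% and 4.82% of all genes, with a median log2 fold change of 0.03. Without wild-type library 2, which held the lowest summed X-linked level at 29535 CPM against 30405 to 31041 CPM in the other 5, the counts were 85 above and 83 below of 613, beside 12.9% and 12.4% of all genes. The 16 tested Y-linked genes had a median of -0.02 and none separated in either direction.

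Collagen genes, which build the extracellular matrix, followed the peritubular list in part. Of 41 tested collagen genes 9 (22.0%) lay above the wild-type range and 0 below, against 6.44% and 4.82% of all genes, with a median of 0.12, and DESeq2 called 3 of them higher. Their summed level overlapped, at 4128 to 4639 CPM in wild type and 4523 to 5543 CPM in knockout. Of 12 listed red blood cell genes 7 were tested and none separated. The 12 tested genes of elongating spermatids had a median of -0.01, and 18 of the 30 listed did not pass the filter on low counts.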
